A study of Zea mays with 229 samples.

Results

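The genes described here were the targets that 2 Golden2-like transcription factors of maize, G2 and GLK44, had in common and shared with few other factors. They were chosen by the authors' deposited table of edges, in which an edge names a gene that responded to a factor: a member was listed for both G2 (Zm00001d039260) and GLK44 (Zm00001d034160), for at most 5 of the 23 regulators in the table, and not for both WRKY36 (Zm00001d049173) and WRKY107 (Zm00001d033965). By this rule 53 of the 19787 listed genes were members, out of 1157 that G2 and GLK44 shared in all. In the TARGET assay a factor on the plasmid p1107 is brought into protoplasts, leaf cells without walls, and the RNA of the cells that glow red is sequenced. Protoplasts came from the second leaves of dark-grown B73 seedlings and were tested with nitrogen (plusN) and without it (minusN).

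G2 had 14 libraries in 2 batches. In 1 batch, where the titles of the G2 libraries begin with G2plant, there were 4 with and 4 without nitrogen, and in the other batch 3 and 3. What G2plant stands for was not inferred, so the G2 libraries of both batches may differ in more than batch. GLK44 had 6 libraries in 1 batch, 3 with and 3 without nitrogen. The empty vector was the control, with 16 libraries in the batches of G2 and 8 in the batch of GLK44, 4 per nitrogen condition in each batch. The series holds 229 libraries, and whether replicates were separate protoplast preparations is not stated in the labels. The sources used here do not name the promoter that drives the factor. All cells were of the same genotype, B73, and their response is that of isolated cells to a plasmid, not of an intact leaf.

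Golden2-like factors bind DNA through a MYB-related domain of the GARP type. In maize, the golden2 mutant from which the family takes its name has pale bundle sheath cells with poorly developed chloroplasts. In Arabidopsis, factors of the family switch on genes for chlorophyll synthesis and for the light-harvesting proteins. GLK44 carries the family's name in the labels, and its own function in maize is not described there.

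The deposited table holds identifiers only. An edge has no direction, size, p-value or nitrogen condition, so a member may have risen or fallen with either factor, and no error can be put on its listing. Of the 53 members, 0 matched the reference gene table, which belongs to another assembly. No member is therefore given a gene name or function, and whether chlorophyll or light-harvesting genes are among them is not reported. None of the 23 regulators was itself a member.

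Most targets of both Golden2-like factors responded to many other factors as well. The 1157 shared targets had a median of 13 regulators, and 54 of them (4.67%) had at most 5. G2 listed 28.1% of all listed genes, and 42.5% of its 5569 targets had at most 5 regulators. GLK44 listed 11.2% of all listed genes, and 14.2% of its 2212 targets had at most 5. Over the 253 pairs of regulators, the share of common targets with at most 5 regulators ran from 0% to 25.7% with a median of 5.37%. The G2 and GLK44 pair stood at rank 147 from the highest. The pair of WRKY36 and WRKY107 had 14.4% (425 of 2947 common targets). These shares depend on the lengths of the lists and were not tested.

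Among the members, 7 were listed for G2 and GLK44 alone, 14 for 1 further regulator, 11 for 2 and 21 for 3. The members at the limit were these 21 genes with 5 regulators, and just outside it lay 30 shared targets with 6. A single shared target within the limit was left out because both WRKY factors listed it.

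**Figure D1:**
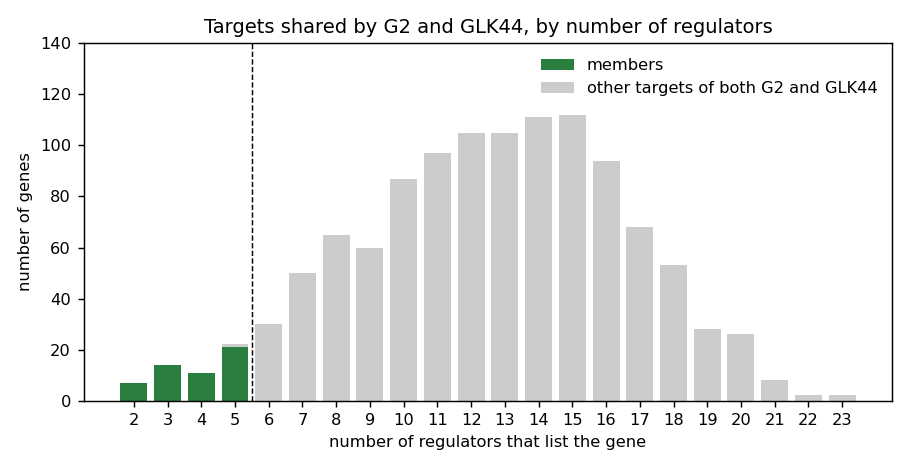
Number of genes listed for both G2 and GLK44 (vertical axis) by the number of regulators that list them (horizontal axis), with members in green, other shared targets in grey and the limit of 5 regulators as a dashed line. The 53 members form the low tail of 1157 genes whose median is 13 regulators.

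The 7 genes listed for no further regulator were the most restricted ones. Of these, Zm00001d003066, Zm00001d017086 and Zm00001d024413 had 2 rows for G2 in the table and were named by the rule for such genes. Zm00001d031068, Zm00001d038675, Zm00001d043175 and Zm00001d051925 had 1 row for G2 and are named here after their values were seen. Among all 19787 listed genes, 3238 had exactly 2 regulators, 2320 had 3, 1712 had 4 and 1302 had 5. For members these counts were 7, 14, 11 and 21, so genes with exactly 2 regulators were a smaller part of the members. The difference was not tested.

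The other 46 members carried 99 listings by further regulators, in 41 different combinations. Listings reached 18 of the 21 further regulators. NAC5, of the plant-specific NAC family, listed the most members, 13 of 53 (24.5%), against 30.6% of all listed genes. HB6, a homeobox factor by its name, listed 11 members (20.8%), against 33.7% of all listed genes. NAC61 listed 10 (18.9%), against 41.9%. The first place of NAC5 depended on the rule. With at most 4 regulators, HB6 listed 5 of 32 members and NAC5 listed 4. With 2 rows required for G2, HB6 listed 5 of 16 members and NAC5 listed 4. At least 1 of these 3 factors listed 25 of the 53 members. The same share over all listed genes was not computed, and NAC61 alone reached 41.9% of them. The limit on the number of regulators lowers every such share among members, so a share below that of all listed genes is not a result about the members.

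WRKY36 listed 9 members (23.6% of all listed genes), and bZIP9 (40.8%) and Zm00001d032024 (23.7%) listed 7 each. EREB115, of the ethylene response factor type by its name, listed 5 members (13.9% of all listed genes), as did MYB121 (32.8%) and MYBR3 (21.5%). MYB81 (14.5%), Orphan42 (20.2%), WRKY107 (32.3%), bHLH47 (14.5%) and bHLH92 (18.6%) listed 4 each. MYB34 (22.2%), MYB56 (10.4%) and Zm00001d003176 (9.45%) listed 2 each, and MYB21 (8.96%) listed 1. NAC66 (7.73%), NAC109 (3.33%) and Zm00001d033859 (3.35%) listed 0 of the 53 members. These 3 lists were the shortest in the table.

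**Figure D2:**
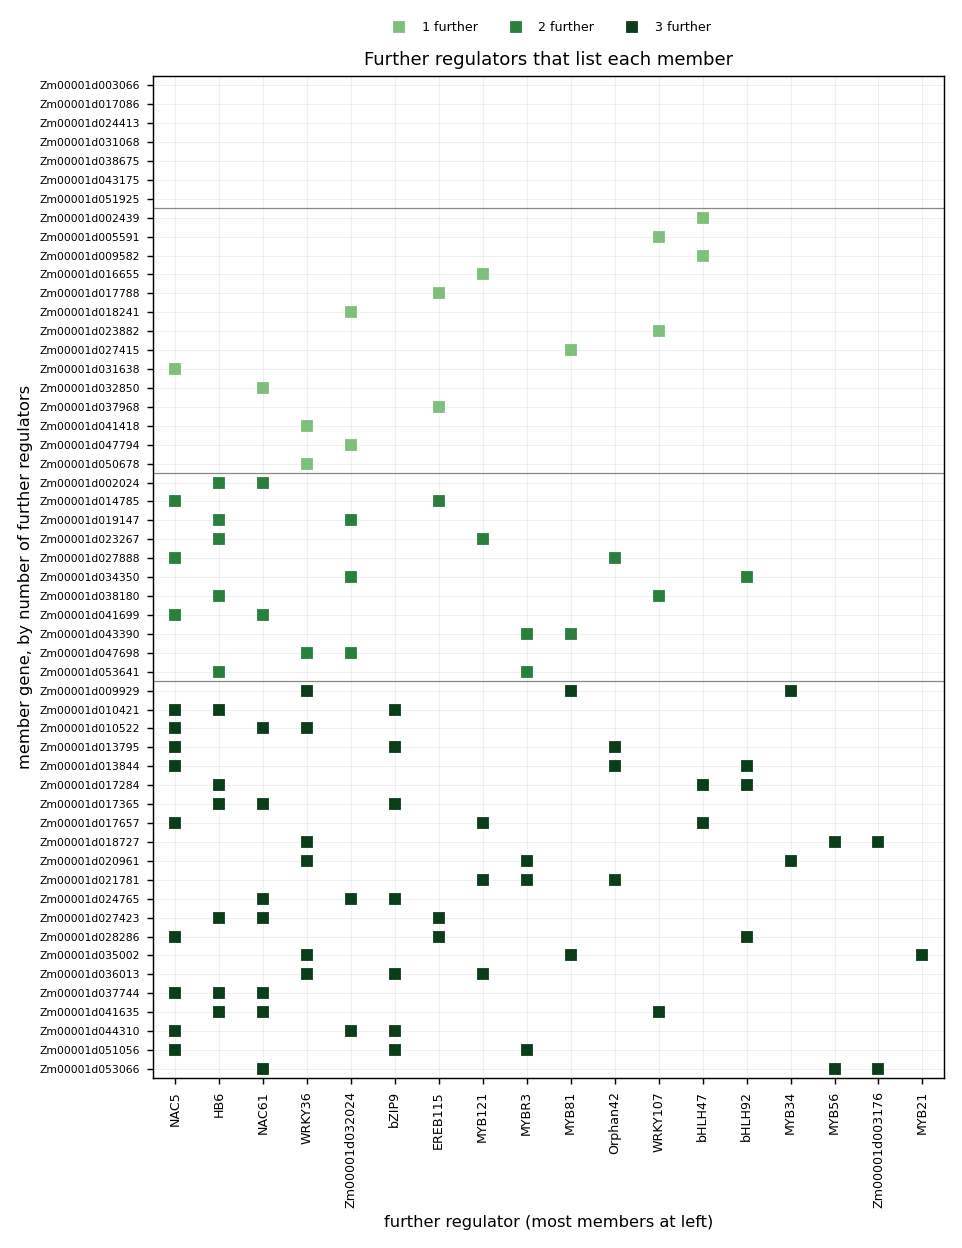
Each of the 53 members (vertical axis) against the 18 further regulators that list any member (horizontal axis, most members at the left), with a square where the regulator lists the gene and darker squares for members with more further regulators. The first 7 genes have no square. The bZIP9 squares stand among the genes with 3 further regulators alone, which rests on 7 genes and was not tested.

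Members with 3 further regulators carried 63 of the 99 further listings, those with 2 carried 22 and those with 1 carried 14. Among the 14 members with exactly 1 further regulator, WRKY36, WRKY107, bHLH47, EREB115 and Zm00001d032024 each listed 2, and NAC5, NAC61, MYB81 and MYB121 each listed 1. HB6 and bZIP9 listed 0 of these 14. All 7 members of bZIP9 had 3 further regulators, while the 11 members of HB6 had 2 (5 genes) or 3 (6 genes). These counts rest on few genes, were not set beside the same counts in other targets, and were not tested. They are therefore not read as traits of these regulators. The genes with WRKY36 as the sole further regulator were Zm00001d041418 and Zm00001d050678, and those with WRKY107 were Zm00001d005591 and Zm00001d023882. Zm00001d002439 and Zm00001d009582 had bHLH47 alone, and Zm00001d017788 and Zm00001d037968 had EREB115 alone. Zm00001d018241 and Zm00001d047794 had Zm00001d032024 alone. These genes were chosen for naming after their values were seen.

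The pair of further regulators met most often was HB6 with NAC61, in 5 members: Zm00001d002024, Zm00001d017365, Zm00001d027423, Zm00001d037744 and Zm00001d041635. They make up 9.43% of members, against 4.11% of the targets of G2 without GLK44 and 6.43% of those of GLK44 without G2 under the same limits, and 17.3% of all listed genes. NAC5 stood with bZIP9 in 4, Zm00001d010421, Zm00001d013795, Zm00001d044310 and Zm00001d051056. That is 7.55% of members, against 2.74% for G2 without GLK44, 6.43% for GLK44 without G2 and 16.7% of all listed genes. Both pairs were picked as the most frequent among members, which raises their shares there. The shares were not adjusted for the number of further regulators per gene. These 4 factors have long lists, and the differences were not tested. The lists of MYB56 (2063 genes) and Zm00001d003176 (1870 genes) had 1527 genes in common. Among members, these regulators listed the same 2, Zm00001d018727 and Zm00001d053066. Both members are among 963 genes that a run of consecutive rows of Zm00001d003176 and a run of MYB56 hold in identical order. These genes, too, were named after their values were seen.

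To set the members beside genes under the same limits, the targets of G2 without GLK44 (2263 genes) and of GLK44 without G2 (249 genes) were used, again with at most 5 regulators and not both WRKY factors. Such genes have room for 1 more further regulator than members have, so the share of each regulator in all further listings was compared: 99 for members, 3826 for G2 without GLK44 and 623 for GLK44 without G2. This does not remove the unequal room, since a regulator's share can change with the number of further regulators per gene. All 7 members of bZIP9, for example, had 3 further regulators. The shares were not adjusted for that number. WRKY36 held 9.09% of the members' further listings, against 4.44% for G2 without GLK44 and 3.21% for GLK44 without G2. MYB81 held 4.04%, against 1.59% and 1.61% in the same order of sets. NAC5 held 13.1%, against 8.13% and 10.1%. In the other direction, bZIP9 held 7.07% of the members' further listings, against 11.1% for G2 without GLK44 and 11.4% for GLK44 without G2. MYB121 held 5.05%, against 10.6% and 9.31%. The low place of bZIP9 did not hold just outside the limit. Of the 30 shared targets with 6 regulators, bZIP9 listed 15, the most of any further regulator. NAC5, WRKY36 and MYB121 listed 9 each of these 30, and MYB81 listed 4. Shares of further listings were not computed for these 30 genes. Over the 21 further regulators, the members' share lay above both other sets for 9, below both for 10 and between them for 2. A member share of 4.04% rests on 4 genes, and genes are not replicates, so none of these differences was tested.

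**Figure D3:**
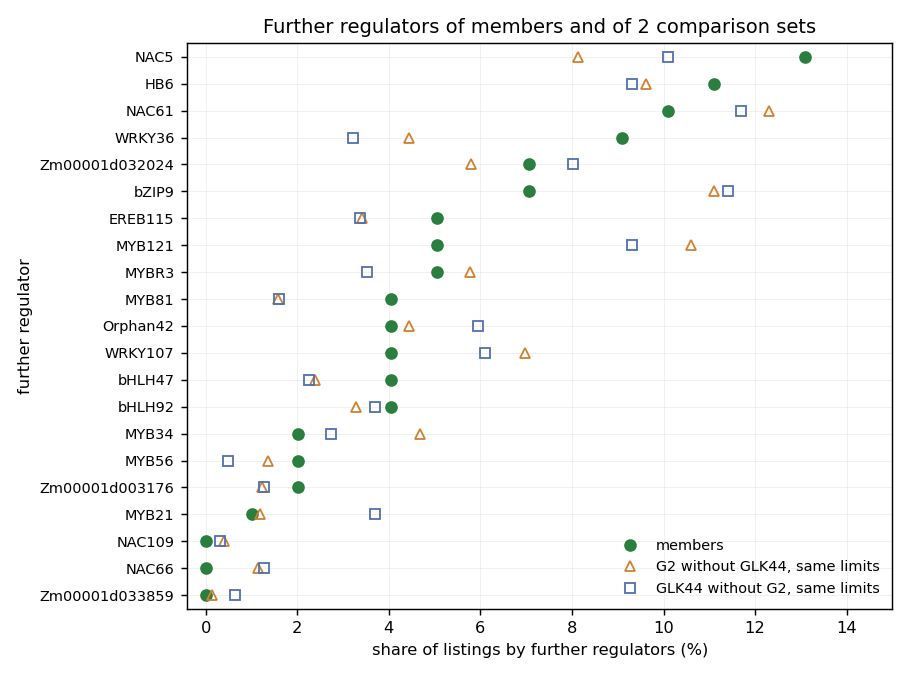
Share of all listings by further regulators that falls to each regulator (horizontal axis, percent), for the 53 members (filled circles) and for targets of G2 without GLK44 (triangles) and of GLK44 without G2 (squares) under the same limits. WRKY36 stands at 9.09% in members, against 4.44% and 3.21%, and bZIP9 at 7.07%, against 11.1% and 11.4%. The shares were not adjusted for the number of further regulators per gene. Just outside the limit, bZIP9 listed 15 of the 30 shared targets with 6 regulators, which are not shown.

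Factors of 1 batch may have been compared with the same empty vector libraries; the sources used here do not say how batches entered the comparisons. MYB21, of the batch of GLK44, listed 1 member, Zm00001d035002. EREB115 and Orphan42, of a batch of G2, listed 5 and 4. In all, 10 of 53 members had a further regulator from a batch of G2 or GLK44. Of all listed genes, MYB21 listed 8.96%, EREB115 13.9% and Orphan42 20.2%. The share of all listed genes with at least 1 of them was not computed, so the count is not a result about batches. G2 and GLK44 themselves shared no batch. Zm00001d003176, Zm00001d032024 and Zm00001d033859 could not be matched to a plasmid. The titles hold no identifier for KN1, of the batch of GLK44, or for NLP3 and ZmMYB38, of other batches. If the 3 regulators are these 3 plasmids, 1 of them shares the batch of GLK44, and which one was not inferred.

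The rows of G2 form 4 runs of consecutive rows, which pair into a shorter listing of 2487 genes and a longer one of 4853. Runs within a listing share no gene. What the listings stand for is not given. The longer listing held 47 of the 53 members (88.7%) and the shorter 22 (41.5%). Of all G2 targets, 87.1% stood in the longer and 44.7% in the shorter, and of the 1157 shared targets 85.7% and 59.3%. In both listings stood 16 members (30.2%), against 504 of the 1104 other shared targets of G2 and GLK44 (45.7%) and 484 of the 2263 targets of G2 without GLK44 (21.4%). The share was 35.9% in shared targets of 6 to 8 regulators, 44.4% with 9 to 12 and 48.6% with 13 to 23. With 2, 3, 4 and 5 regulators it was 42.9%, 21.4%, 36.4% and 31.8%, of 7, 14, 11 and 22 genes. Of the members with 1 row for G2, 31 stood in the longer listing and 6 in the shorter. The rule did not use the repeat, but it limited the number of regulators. From 6 regulators upward the repeat rose with that number, while from 2 to 5 it followed no order. The part of that number in the difference was not tested.

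In each listing of G2, and among the rows of GLK44, 1 run held the factor's own gene and 1 did not. GLK44 had 27 members in the 1048 rows of the run with its own gene and 26 in the 1164 rows of the other. Members were thus divided almost evenly, as was the whole GLK44 list. The 7 members without a further regulator fell 5 and 2. Among the 16 members in both G2 listings, 7 stood in the same kind of run (with or without the own gene) in both and 9 in different kinds. For all 1771 G2 targets with 2 rows these counts were 765 and 1006. Leaving out the 9, members stood in the same kind of run for G2 and GLK44 in 20 of 44 cases (45.5%), against 439 of 857 (51.2%) for all shared targets. No direction of response was read from the runs.

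The place of a gene within its run was described as a percentage of the run, with the first row near 0. What the order stands for is not given; GLK44's own gene stood in row 281 of 1048. In the rows of GLK44, members stood late, from 22.1% to 98.7% with a median of 63.8%, against a median of 43% for the other shared targets. The earliest was Zm00001d041635, in row 258 of 1164, and the latest Zm00001d032850, in row 1149 of 1164. Of 53 members, 4 stood in the first 25% of a run, against 353 of 1104 other shared targets. Targets of GLK44 without G2 under the same limits stood later still, with a median of 74.1%. Shared targets with more regulators stood earlier, with medians of 56.1% for 6 to 8 regulators, 47.8% for 9 to 12 and 34.7% for 13 to 23.

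In the rows of G2, 22 members of the shorter listing ran from 4.13% to 99.9% with a median of 65.4%, against 42% for the other shared targets and 56.6% for G2 without GLK44. In the longer listing the 47 members ran from 2.4% to 98.2%, with a median of 45.9%, against 37.8% for the other shared targets and 59% for G2 without GLK44. The members thus ranged over most of both listings. In the shorter listing their median lay above both other sets, and in the longer listing between them. Of the 16 members in both listings, 6 stood in the first 25% of their run in each. The earliest in the longer listing was Zm00001d043390, with MYB81 and MYBR3 as further regulators, at 2.4% of the longer and 4.77% of the shorter listing and at 25.8% of its GLK44 run. In the GLK44 rows these 6 members ranged from 25.8% to 88.9%. The gene was chosen after its values were seen.

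**Figure D4:**
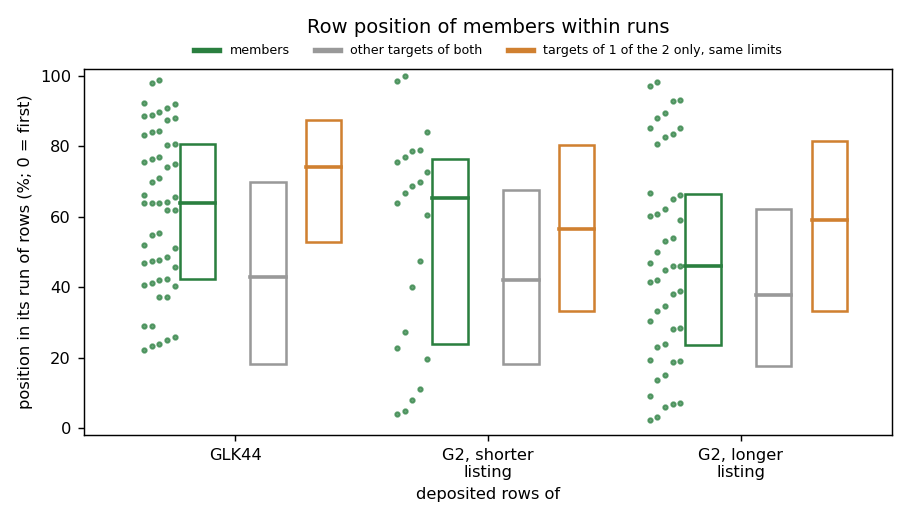
Position of genes within their run of deposited rows (vertical axis, percent, 0 is the first row) for GLK44 and the shorter and longer listings of G2. Points are members, and boxes give the quartiles and median of members (green), other shared targets (grey) and targets of only 1 of both factors under the same limits (orange). In GLK44 rows the members' median is 63.8%, against 43% for other shared targets and 74.1% for GLK44 without G2.

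Members did not lie side by side by identifier. No 2 members had consecutive identifiers, and the closest, Zm00001d027415 and Zm00001d027423, were 8 apart. With 53 members among 19787 listed genes such pairs would be rare in any case, so this is only a description. Of the 106 identifiers next to a member, 49 were listed for any regulator. G2 listed 11 of these 49 (22.4%), against 28.1% of all listed genes, and GLK44 listed 4 (8.16%), against 11.2%. Both factors listed 1 of the 49, against 1157 of the 19787 listed genes.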

How the data were processed

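The authors deposited 1 table of 94256 rows, each with the identifiers of a regulator and a target gene and both joined. All columns are text, with no number per edge. The submitters' processing notes name B73 RefGen_v4 as genome build and, as tools, featureCounts and edgeR; the sources used here do not give versions, thresholds or how batches and nitrogen conditions were combined. Sequencing depth is unknown. No interval is given for the shares in the results, since genes are not replicates. Distinct edges (92485) were used, and 1771 edges of G2 had 2 rows. Plasmid and batch were taken from sample titles that hold a regulator's identifier, as they do for 20 of 23 regulators. Members and lists were chosen with earlier results of these data known. Shares and medians were computed with Python 3.11.15, pandas 2.3.3 and numpy 2.4.6, and no test was run, since edges carry no values per library and genes are not replicates. The rule for members was tested on simulated data. Where no gene name was at hand, at most 4 identifiers were to be named, those listed for G2 and GLK44 alone with 2 G2 rows, of which there were 3; further identifiers are marked in the text as named after their values were seen. The planned lists of genes by description, such as chlorophyll synthesis, light harvesting and carbon fixation, and the leaf cell type genes were not counted, since 0 of 53 members matched a gene name.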

Additional observations from a re-analysis of the deposited data

How the results depend on the processing

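The number of members was 53, and 54 to 78 with genes of both WRKY factors kept, at most 6 regulators, only regulators matched to a plasmid, regulators of shared batches not counted, or the rows of Zm00001d003176 that repeat the MYB56 list left out. With at most 4 regulators there were 32 members, of which NAC5 listed 12.5% in place of 24.5% and NAC61 9.38% in place of 18.9%. Requiring 2 rows for G2 left 16 members, 3 of them without a further regulator in place of 7. Each of these values comes from a narrower rule, with fewer genes or fewer further regulators allowed. The other 41 of 46 alternatives stayed within 1.5 times the count or within the 95% exact binomial interval of the share. That interval treats genes as independent replicates, which they are not, and it served only to label the alternatives. The alternatives largely count the same genes again, so a value within the interval shows little about stability. The share with 2 G2 rows stayed between 29% and 32.3%, and that in the same kind of run between 34.6% and 52.4%. Leaving out replicates was not run. No paired analysis was possible because edges carry no replicate and no library value.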
